A study of Mus musculus with 9 samples.

Results

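The histone deacetylases were followed in dorsal root ganglia (DRG) of mice after sciatic nerve injury, through every array probe of 10 genes: Hdac1, Hdac2, Hdac3, Hdac4, Hdac5, Hdac6, Hdac7, Hdac8, Hdac9 and Hdac11. Probes were found by the gene name in the scanner files, by an older symbol (Hdac7a for Hdac7) or by the RefSeq accession. This gave 16 probes, of which 15 were above background in the DRG channel on enough arrays to be tested, out of 31186 tested probes that stand for 20898 genes. The study profiled L3/L4 DRG of adult mice labelled jun.wt and cre.neg, that is with wild-type Jun and no Cre, on 4 uninjured arrays (C1 to C4) and 5 arrays after sciatic nerve transection (T1 to T5). The labels and the study's methods text give 3 days after transection, while its results text gives a shorter time. DRG RNA carried Cy5 and a common mouse reference RNA carried Cy3 on all arrays, the dyes were never exchanged, and each value is a log2 ratio of DRG over the same reference. The labels name no animals and do not say whether RNA was pooled, so p-values measure the spread between these samples, which may be technical. The ganglion is a mix of neurons, glia, blood vessels and immune cells, and in such bulk tissue fewer cells of a type and less RNA per cell cannot be told apart.

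Histone deacetylases remove acetyl groups from lysines of histones and other proteins, and on histones this goes with more closed chromatin and less transcription. Class I enzymes (Hdac1, Hdac2, Hdac3 and Hdac8) are mostly nuclear and work as the catalytic subunits of corepressor complexes. Class IIa proteins (Hdac4, Hdac5, Hdac7 and Hdac9) have weak catalytic activity of their own, bind MEF2 transcription factors, and leave the nucleus when calcium-dependent kinases, protein kinase D or salt-inducible kinases phosphorylate them. Hdac6, of class IIb, acts mainly in the cytoplasm on tubulin and cortactin, and Hdac11 is the sole class IV member. In sensory neurons the export of Hdac5 from the nucleus after axon injury is a known step of the injury response, which works on the protein and not on the mRNA measured here.

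Genes known to respond to nerve injury were read first, as a check of the labels. Atf3, a transcription factor of injured sensory neurons, rose by 5.14 on the log2 scale (standard error 0.0692, limma adjusted p = 2.28e-11), and Jun, its partner, rose by 1.77 (standard error 0.228, limma adjusted p = 0.000315). All 8 injury genes listed for this check rose, where 11.2% of all genes were called higher. The list was chosen with earlier results of these data known. Median Cy5 signal lay between 156 and 238, and between 71.0% and 78.9% of spots were above background on the 9 arrays. The arrays lay on 3 slides: 1 held C2, C3 and C4, another held C1 with T1, T2 and T5, and the remaining slide held T3 and T4. Slide and injury therefore overlap in large part, and a comparison within a slide rests on C1 alone as the uninjured sample.

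The log2 fold changes of the tested Hdac probes lay between −0.56 and 0.31. By the brightest probe of each gene, 2 of the 10 genes fell, Hdac4 and Hdac11, and 0 rose in limma at an adjusted p under 0.05. Over all genes tested, 13.6% were called lower and 11.2% higher by the same rule. Counted by probe, 2 of 15 were called lower and 0 higher, where 13.0% and 10.5% of all probes were called. The count that fell is near the share of all genes that fell and is no result about the family. At an unadjusted p under 0.05, 3 of the 15 probes passed higher and 3 lower, where 16.0% of all probes passed higher and 19.2% lower. Of those 3 lower probes, the dimmer one of Hdac2 was above background on 4 of 4 uninjured but 1 of 5 injured arrays. The median log2 fold change of the 10 genes was −0.054, beside a median of 0.0018 over all genes. Injured and uninjured arrays did not overlap for 1 of the 15 probes, that of Hdac4, while 22.6% of all probes showed no overlap. No member was saturated on any array.

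**Figure D1:**
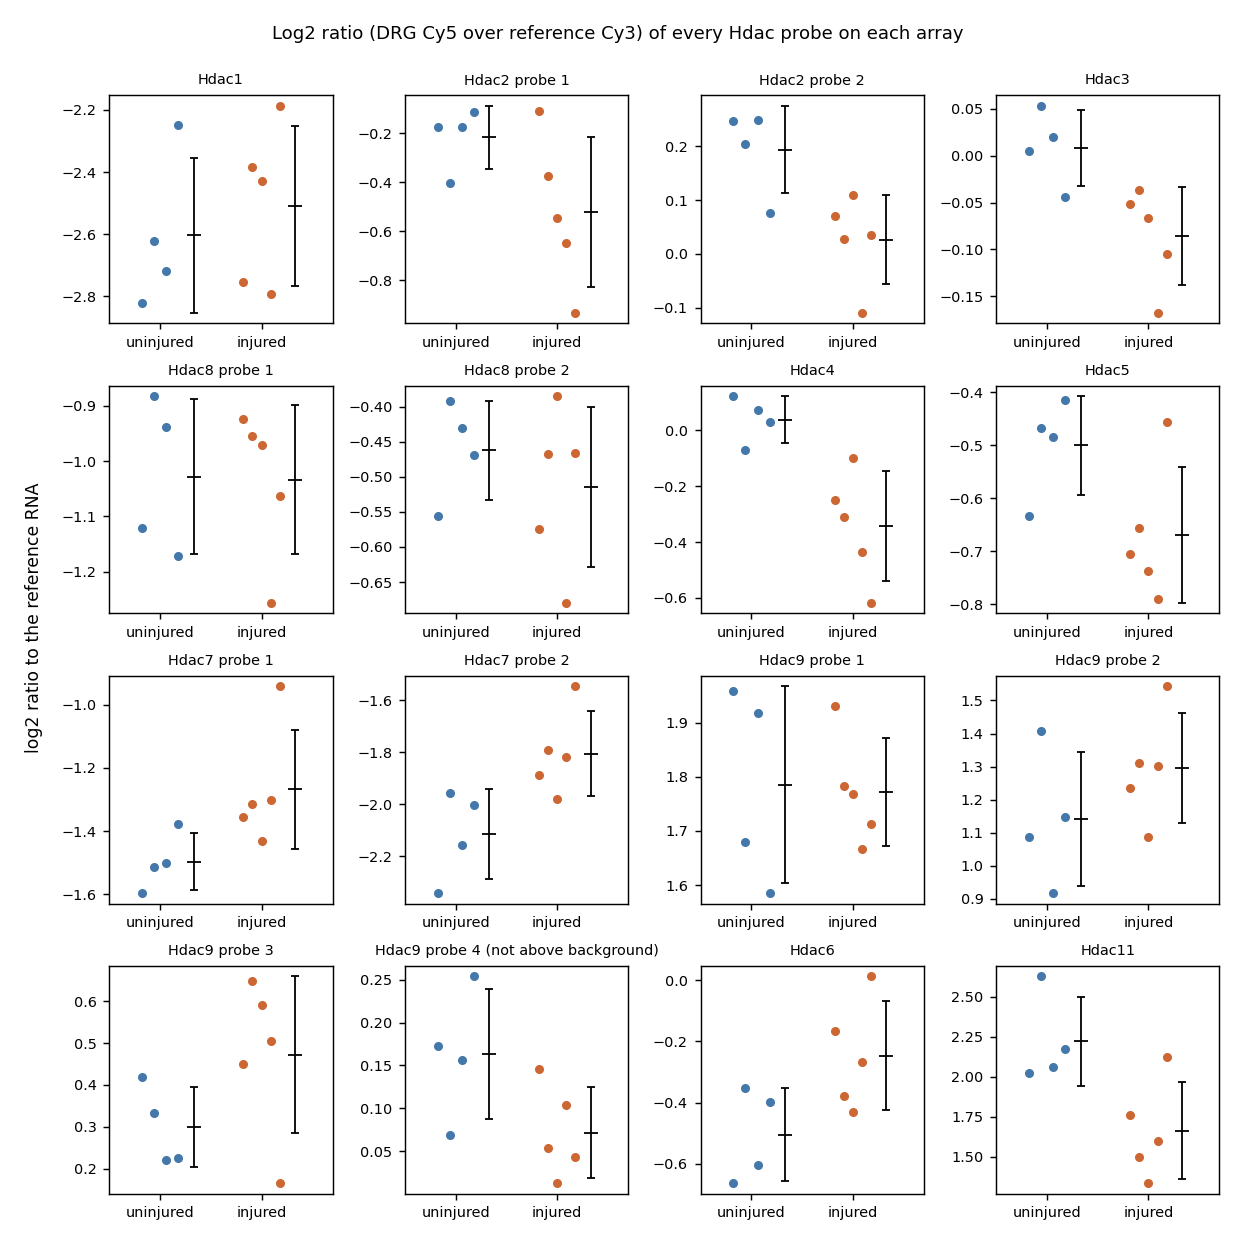
Log2 ratio of DRG (Cy5) over reference (Cy3) RNA for each of the 16 Hdac probes, with 1 point per array for 4 uninjured (blue) and 5 injured (orange) arrays and bars for the mean ± SD. The groups are apart for Hdac4 alone among the tested probes, with injured arrays from −0.62 to −0.10 and uninjured arrays from −0.07 to 0.12; each panel has its own vertical scale.

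Hdac4, a class IIa protein that represses MEF2 targets in muscle, bone and neurons, was lower in injured ganglia by a modest amount. Its probe (NM_207225, chr1:91840786-91840845 of mouse build mm7) read 0.12, −0.07, 0.07 and 0.03 on uninjured arrays C1 to C4. On injured arrays T1 to T5 it read −0.25, −0.31, −0.10, −0.43 and −0.62. Every injured array lay below every uninjured one, though T3 came within a small distance of C2. The uninjured mean was 0.0392 ± 0.0831 (SD, n = 4) and the injured mean −0.342 ± 0.196 (SD, n = 5), which is a log2 fold change of −0.38 or 0.768-fold (95% interval −0.60 to −0.17, limma adjusted p = 0.0168). An exact permutation test of this probe alone (two-sided, 126 ways to split 9 arrays) gave p = 0.0159, where 0.00794 is the smallest p these group sizes allow. Within the slide that holds both groups the difference was −0.52, with all 3 injured arrays below C1. The call was lost without C1 (−0.35, limma adjusted p = 0.0548), when slide entered as a fixed block (−0.52, adjusted p = 0.148) and under median centring in place of loess (−0.48, adjusted p = 0.136).

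Hdac11, the class IV enzyme, which is abundant in brain and also removes long fatty acyl groups from lysine, had the larger fall in size and the wider spread. Its probe (NM_144919, chr6:91256417-91256476 of mm7) read 2.02, 2.63, 2.06 and 2.17 on C1 to C4 and 1.76, 1.50, 1.33, 1.60 and 2.13 on T1 to T5. The ganglia held more of this mRNA than the reference RNA on all 9 arrays. T1 to T4 lay below every uninjured array, while T5 at 2.13 lay above C1 and C3, so the groups overlapped. Uninjured ganglia averaged 2.22 ± 0.279 (SD, n = 4) and injured ganglia 1.66 ± 0.302 (SD, n = 5), for a log2 fold change of −0.56 or 0.679-fold (95% interval −0.92 to −0.19, limma adjusted p = 0.0323). The two-sided exact permutation p was 0.0317, which does not set Hdac11 apart from probes that limma did not call. The same exact test gave 0.0238 for Hdac3 and the dimmer Hdac7 probe, and 0.0317 for the brighter Hdac7 probe and the dimmer Hdac2 probe. Uninjured array C2, at 2.63, carried part of the difference, and leaving it out gave −0.42 with a limma adjusted p of 0.0823. The call was also lost without C4 (adjusted p = 0.0631), T2 (0.0702), T3 (0.0645) or T4 (0.0693), and within the slide that holds both groups the difference was −0.23, with T5 above C1.

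The sequence before the start of the 2 genes that fell is printed to show what their promoters hold, from RefSeq on build GRCm38.p6, 5′ to 3′ on the strand of the gene. Promoter sequence was matched for 8 of the 10 members by symbol. Capitals mark a GC box (GGGCGG), to which SP1-family factors bind, and a CCAAT box (CCAAT), to which NF-Y binds, each on either strand. The Hdac4 window of 250 bases, at chr1:92180342-92180591 on the minus strand, lies before 1 of the gene's starts, which is 15.4 kb inside the annotated gene. For Hdac11 the 100 bases at chr6:91156570-91156669 on the plus strand end where the annotated gene begins. That point is 145 bases before the start listed for this promoter.
Hdac4: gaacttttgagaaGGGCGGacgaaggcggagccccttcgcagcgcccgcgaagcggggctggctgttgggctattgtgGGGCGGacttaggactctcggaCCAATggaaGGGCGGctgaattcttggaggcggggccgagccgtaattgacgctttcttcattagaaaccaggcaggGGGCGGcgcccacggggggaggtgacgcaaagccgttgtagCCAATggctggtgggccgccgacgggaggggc
Hdac11: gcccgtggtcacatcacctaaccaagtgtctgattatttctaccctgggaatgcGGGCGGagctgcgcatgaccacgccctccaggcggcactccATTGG
The Hdac4 window held the GC box at 4 places and the CCAAT box at 2, where 32.7% and 33.8% of 32851 promoter windows of that length held at least 1. In the shorter Hdac11 window each stood once, against 10.7% and 13.6% of windows of its length at the same distance before each promoter's listed start. Neither window held the letters of an AP-1 site (TGANTCA), to which Jun and Fos proteins bind, which 6.75% of the longer and 2.49% of the shorter windows held. The cyclic AMP response element (TGACGTCA) was in neither, against 1.55% and 0.177% of windows. These are matches of letters on both strands, none of them overlapping, and not measured binding.

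The class I genes, which form the nuclear core of the family, did not pass the test by any of their 6 probes. Hdac1 (NM_008228), the catalytic subunit shared by the Sin3, NuRD and CoREST complexes, read −2.82, −2.62, −2.72 and −2.25 on C1 to C4 and −2.75, −2.38, −2.43, −2.79 and −2.19 on T1 to T5. Both groups spanned nearly the same range, and the log2 fold change was 0.09 (95% interval −0.23 to 0.42, limma adjusted p = 0.697). Single arrays left out moved it between 0.01 (without T5) and 0.21 (without C4), and on the slide that holds both groups the difference was 0.38, with all 3 injured arrays above C1. The array also lists LOC634881 as similar to Hdac1, and whether the Hdac1 probe also reads RNA of that locus was not tested. That probe, which was named after its values were seen, had a log2 fold change of −0.09 (limma adjusted p = 0.871).

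For Hdac2, which stands beside Hdac1 in the same complexes, both probes pointed down without passing. The brighter probe (NM_008229) read −0.18, −0.40, −0.17 and −0.11 on C1 to C4 and −0.11, −0.37, −0.55, −0.65 and −0.93 on T1 to T5. Injured array T1 was the highest of the 9, T2 was within the uninjured range and T3 to T5 were below it, for a log2 fold change of −0.31 (95% interval −0.62 to 0.01, limma adjusted p = 0.154). Without T1 it was −0.41 and passed (limma adjusted p = 0.032), and without T5 it was −0.20 (adjusted p = 0.247). The dimmer probe (AK051753) gave −0.17 (95% interval −0.31 to −0.02, limma adjusted p = 0.0906). It was well above background in Cy5 on 4 of 4 uninjured but 1 of 5 injured arrays, so it entered the test through the group where it was higher, and its ratio on the other injured arrays is near the limit of the signal.

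Hdac3, the catalytic subunit of the NCoR and SMRT complexes, read 0.01, 0.05, 0.02 and −0.04 on C1 to C4 and −0.05, −0.04, −0.07, −0.17 and −0.11 on T1 to T5. The spread within each group was the narrowest of the class I probes, and T2 was close to C4. Its log2 fold change of −0.09 (95% interval −0.21 to 0.03) had a limma adjusted p of 0.248. The 2 probes of Hdac8 (NM_027382), a class I enzyme that acts on the cohesin subunit Smc3, gave −0.01 (95% interval −0.20 to 0.19, limma adjusted p = 0.975) and −0.05 (95% interval −0.21 to 0.11, limma adjusted p = 0.653). Injured arrays lay between −1.26 and −0.92 for the brighter Hdac8 probe, and uninjured arrays between −1.17 and −0.88.

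Among the other class IIa genes none passed. Hdac5 (NM_010412), the member exported from the nucleus of injured sensory neurons, read −0.63, −0.47, −0.48 and −0.42 on C1 to C4 and −0.71, −0.66, −0.74, −0.79 and −0.46 on T1 to T5. T1 to T4 were below every uninjured array, and T5 was among the highest of the 9. Its log2 fold change of −0.17 (95% interval −0.34 to 0.00) had a limma adjusted p of 0.151, and without T5 it was −0.22 and passed (adjusted p = 0.0315). Within the slide that holds both groups the difference of Hdac5 was 0.03, with T5 above C1 and T1 and T2 below it.

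Hdac7, known from endothelial cells and thymocytes, pointed up by both of its probes (NM_019572), which lie within the same stretch of chromosome 15. The brighter one read −1.60, −1.51, −1.50 and −1.38 on C1 to C4 and −1.35, −1.31, −1.43, −1.30 and −0.94 on T1 to T5, a log2 fold change of 0.23 (95% interval 0.02 to 0.44, limma adjusted p = 0.116). The dimmer one averaged −2.11 ± 0.174 (SD, n = 4) on uninjured and −1.80 ± 0.163 (SD, n = 5) on injured arrays, for a log2 fold change of 0.31 (95% interval 0.08 to 0.54, limma adjusted p = 0.0507). T5 was the highest and T3 the lowest injured array for both probes, and T3 lay within the uninjured range for both. On the slide that holds both groups the differences were 0.39 and 0.60, with all 3 injured arrays above C1. The dimmer probe passed without C2 (adjusted p = 0.0423) or without T3 (adjusted p = 0.0372) and was lowest without C1 (0.23, adjusted p = 0.149). Without T5 the brighter probe was at 0.15 (adjusted p = 0.131).

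Hdac9, which in neurons and muscle occurs in a long form and in a short form without a catalytic domain, was measured by 4 probes in 2 places. Probes 1 and 2 (NM_024124) and probes 3 and 4 (AK173017) lie 320015 bases apart on chromosome 12 of mm7. Probe 1 had a log2 fold change of −0.01 (95% interval −0.21 to 0.19, limma adjusted p = 0.938), with means of 1.79 ± 0.182 (SD, n = 4 uninjured) and 1.77 ± 0.100 (SD, n = 5 injured). Probes 2 and 3 gave 0.16 (95% interval −0.09 to 0.40) and 0.17 (95% interval −0.04 to 0.39), with limma adjusted p values of 0.35 and 0.235, and probe 2 ranged from 0.08 (without C3) to 0.24 (without C2). Probe 3 was above background in Cy5 on all 9 arrays and in the Cy3 reference on 0, so its ratio to the reference is a bound and only its difference between groups can be read. Without T5, its lowest array, probe 3 passed at 0.25 (adjusted p = 0.0273). Probe 4 was not well above background on any array in either channel and was not tested. The difference between the probes was not tested.

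**Figure D2:**
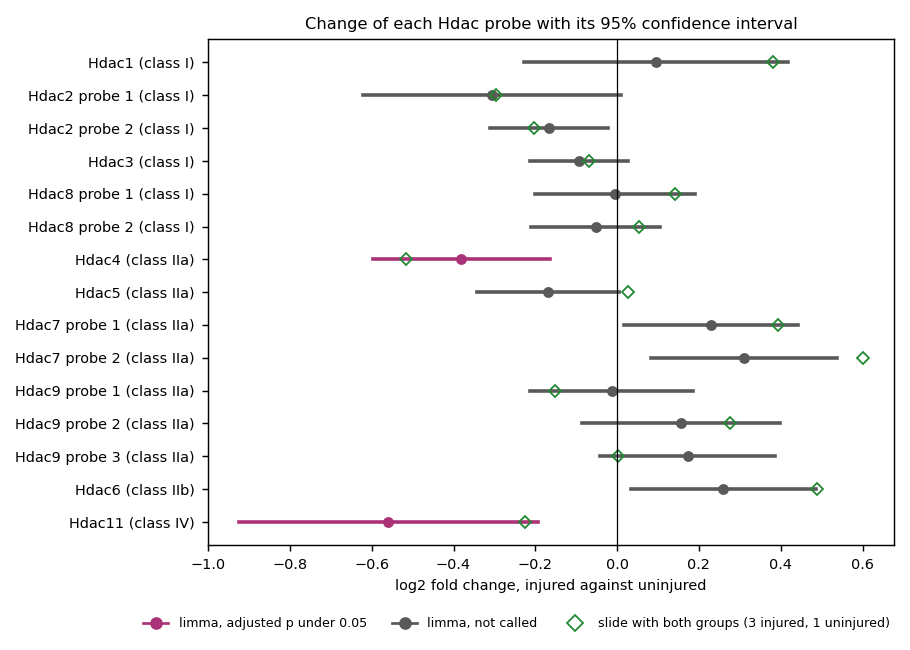
Log2 fold change (injured against uninjured) of the 15 tested Hdac probes from limma, with the 95% confidence interval as a line, coloured where the adjusted p was under 0.05. Open diamonds show the difference on the slide that held 3 injured and 1 uninjured array: −0.52 for Hdac4 and −0.23 for Hdac11, whose intervals lie below 0. The diamonds of Hdac7 probe 2 (0.60), Hdac5 (0.026) and, by a small margin, Hdac6 (0.488) lie above the upper end of their own intervals.

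Hdac6 (NM_010413), the class IIb enzyme that takes acetyl groups off tubulin along axons, was −0.66, −0.35, −0.60 and −0.40 on C1 to C4. It was −0.17, −0.38, −0.43, −0.27 and 0.01 on T1 to T5. T1, T4 and T5 exceeded every uninjured array, and T2 and T3 were within the uninjured range. The log2 fold change was 0.26 (95% interval 0.03 to 0.49, limma adjusted p = 0.0952), and the two-sided exact permutation p was 0.0714. On the slide that holds both groups its difference was 0.49, with all 3 injured arrays above C1. The other class IIb gene, Hdac10, is not among the 10 genes and is named here after its values were seen, with 2 probes at −0.07 and 0.00 (limma adjusted p = 0.629 and 0.99).

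Since each value is a ratio, both channels were also read alone. In Cy5 alone, scaled by quantiles, Hdac4 was at −0.40 (limma adjusted p = 0.0321) and Hdac11 at −0.64 (adjusted p = 0.0364), so both calls held in the DRG channel. The dimmer Hdac7 probe (0.31, adjusted p = 0.0485) and Hdac6 (0.32, adjusted p = 0.0477) passed in that channel too. In the Cy3 reference alone, which holds the same RNA on every array, 0 of the 15 Hdac probes were called by limma. At an unadjusted p under 0.05, 1 passed, that of Hdac11, where 8.99% of all probes passed. The log2 fold changes in Cy3 were −0.01 for Hdac4 (limma adjusted p = 0.854) and −0.11 for Hdac11 (adjusted p = 0.38). Hdac11 thus read lower in injured arrays in both channels, with a two-sided exact permutation p of 0.0238 in Cy3.

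**Figure D3:**
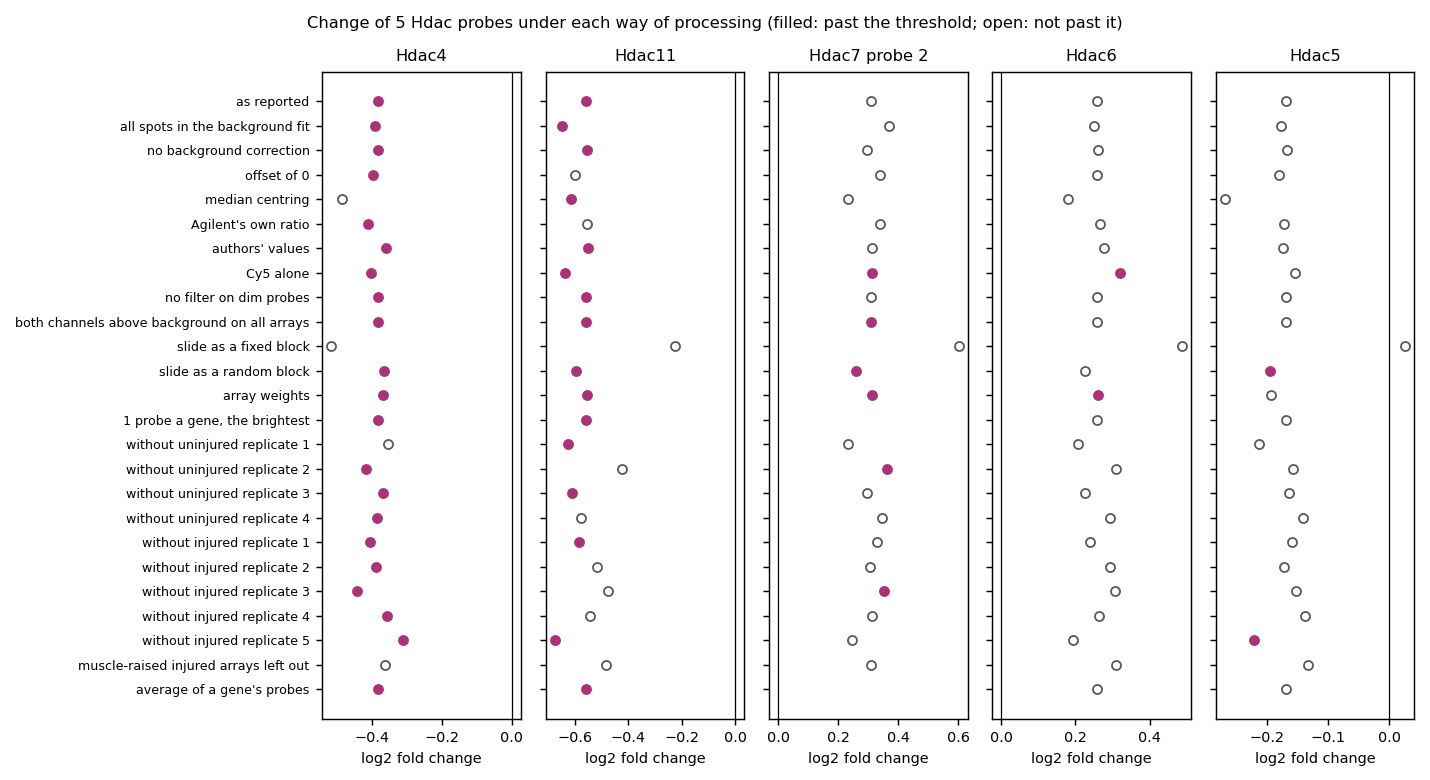
Log2 fold change of 5 Hdac probes under each way of processing or choice of arrays, 1 row each. Filled points are past the threshold of 0.05 on the adjusted p and open points are not. Hdac4 stays between −0.52 and −0.31 and Hdac11 between −0.67 and −0.23; the dimmer Hdac7 probe and Hdac6 stay above 0, and Hdac5 reaches 0.03 with slide as a fixed block.

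Markers of the cells in the ganglion were read on the same arrays. All 14 neuron markers were above background on enough arrays to be tested, and 2 of them fell, the sodium channel gene Scn9a (−0.54) and the transcription factor gene Isl1 (−0.51), with a list mean per injured array between −0.30 and 0.13 relative to the uninjured mean. Marker genes are named here after their values were seen. The counts of each list stand beside 11.2% of all genes called higher and 13.6% called lower by the same rule. None of the 9 Schwann cell markers passed in limma, while 2 of 8 satellite glia markers rose, Glul (0.78) and Slc1a3 (0.22). Of 13 macrophage markers 3 rose, Aif1, Itgam and Cd14, and the list mean lay between 0.10 and 1.16 on injured and between −0.43 and 0.36 on uninjured arrays. None of the 11 muscle markers passed, but their mean was 1.45 on T2 and 2.86 on T4, against −0.15 to 0.31 on the other injured arrays and −0.05 to 0.10 on the uninjured arrays. None of the 4 red blood cell markers tested passed, and they had means of 1.42, 0.71 and 1.03 on T2, T4 and T5, −0.03 and 0.15 on T1 and T3, and between −0.20 and 0.27 on uninjured arrays. Of 9 dividing cell markers tested 1 rose, Birc5 (0.36), with list means between 0.01 and 0.54 on injured and −0.11 and 0.04 on uninjured arrays. With T2 and T4 left out, a choice made after their muscle values were seen, Hdac4 was at −0.36 (limma adjusted p = 0.0893) and Hdac11 at −0.48 (adjusted p = 0.16), with 3 injured arrays left. The part of these cells in the Hdac values was not tested beyond this.

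The genes that work with each class were read from lists, first those of the class I complexes. Of 32 subunits of the Sin3, NuRD, CoREST and NCoR complexes, 3 rose and 5 fell, beside 11.2% and 13.6% of all genes. Both counts are near these shares and are no result about the complexes. The list's median was 0.05 on the log2 scale. Rcor2, a CoREST scaffold of neural cells, read −1.82, −1.51, −1.56 and −1.63 on C1 to C4 and −2.29, −2.28, −2.15, −2.46 and −2.40 on T1 to T5. All injured arrays were below all uninjured ones, and 22.6% of all probes likewise showed no overlap. The log2 fold change of Rcor2 was −0.69 (standard error 0.0834, limma adjusted p = 0.000218). Chd5, the neuronal remodelling ATPase of NuRD, fell by 0.59 on the log2 scale (limma adjusted p = 0.00364), and its other 2 probes also fell. Chd3, another NuRD ATPase, had a log2 fold change of −0.27 (adjusted p = 0.0137), while its other 3 probes, between −0.25 and −0.06, did not pass. The subunits that rose were Gatad2a of NuRD (0.36, adjusted p = 0.00192, with its other probe at 0.16 not past the test), Tbl1xr1 of the NCoR complex (0.35, adjusted p = 0.005) and Kdm1a, the lysine demethylase of CoREST (0.25, adjusted p = 0.0151). The remaining 2 of the 5 that fell, named after their values were seen, were Tbl1x (−0.22) and Mta1 (−0.18). With slide as a fixed block none of the first 6 passed in limma.

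The partners and kinases of class IIa proteins held the largest change of any list beside the injury genes. Of 24 genes 2 rose and 5 fell, beside 11.2% and 13.6% of all genes, with a median of 0.00. Camk1, a calcium and calmodulin-dependent kinase that can phosphorylate class IIa proteins, read −0.64, −0.42, −0.61 and −0.46 on C1 to C4 and 1.72, 1.64, 1.34, 1.71 and 1.65 on T1 to T5. Its groups were far apart, with a log2 fold change of 2.15 or 4.42-fold (standard error 0.089, limma adjusted p = 1.25e-07), and its other probe rose by 1.79. Sik1, a salt-inducible kinase, rose by 0.45 (standard error 0.0894, limma adjusted p = 0.00448) with no overlap between the groups, as for 22.6% of all probes. Mef2c, a transcription factor that class IIa proteins bind and repress, read 1.39, 1.29, 1.31 and 1.46 on C1 to C4 and 0.17, 0.53, 0.70, 0.64 and 0.75 on T1 to T5. It was lower on every injured array, by −0.80 or 0.573-fold (standard error 0.11, limma adjusted p = 0.000453). Camk1, Sik1 and Mef2c passed under all 24 alternatives run for each of them, as did Camk2b.

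Camk2b, the beta subunit of calcium and calmodulin-dependent kinase II, fell by 0.52 (standard error 0.0588, limma adjusted p = 0.000132), and Prkd1, the gene of protein kinase D1, fell by 0.58 (standard error 0.13, limma adjusted p = 0.00836). Both had no overlap between the groups, as had 22.6% of all probes. The remaining genes of the 5 that fell, named after their values were seen, were Mef2d at −0.28 (adjusted p = 0.00579) and Camk2a at −0.31 (adjusted p = 0.0318). The other 2 probes of Mef2d were at −0.07 and 0.00 and the other probe of Camk2a at −0.16, and none of these passed. Camk2a lost its call without C1, C2, C4, T2, T4 or T5, with adjusted p up to 0.0935. Hdac4 and its partner Mef2c were both lower in injured ganglia, and the kinases of this list moved both ways.

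**Figure D4:**
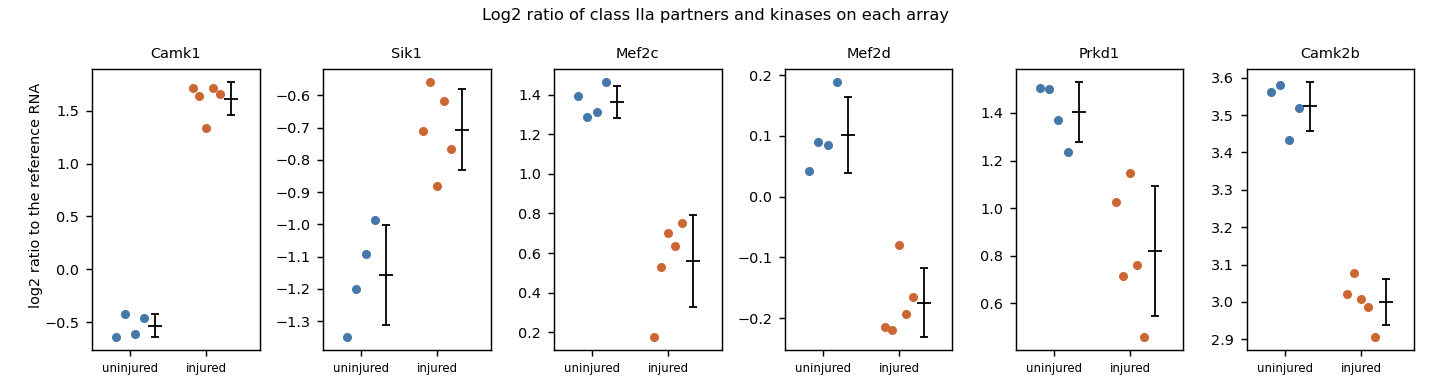
Log2 ratio of DRG over reference RNA on each array for 6 class IIa partners and kinases, with 1 point per array (blue uninjured, orange injured) and bars for the mean ± SD. The 6 genes were picked from those called in this list. Camk2a, also called, has overlapping groups and is not drawn, nor are the 17 genes not called. Injured and uninjured arrays do not overlap in any of the 6 panels, as for 22.6% of all probes. Camk1 spans 2.15 between its means, and each panel has its own vertical scale.

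Around Hdac6, 2 of 11 genes of tubulin acetylation and Hdac6 partners rose and 0 fell, with a median of 0.10. Of all genes 11.2% were called higher and 13.6% lower. Cttn, the gene of cortactin, an actin-binding substrate of Hdac6, rose by 0.66 (standard error 0.157, limma adjusted p = 0.0113), and its other probe rose by 0.47. Uninjured array C2, at −0.48, was above injured array T3, at −0.62. Sqstm1, the gene of the autophagy adaptor p62, rose by 0.47 (standard error 0.119, limma adjusted p = 0.0152), and without C3 it had an adjusted p of 0.0511.

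The sirtuins remove acetyl groups by use of NAD and are unrelated in sequence to the Hdac family. They had 1 gene of 7 higher and 2 lower, beside 11.2% and 13.6% of all genes, with a median of 0.08. Sirt5, the mitochondrial desuccinylase, fell by 0.58 (standard error 0.0925, limma adjusted p = 0.00128) and Sirt4, also mitochondrial, by 0.27 (adjusted p = 0.00905). Neither had overlap between the groups, as for 22.6% of all probes. Sirt6, a chromatin enzyme, rose by 0.21 (limma adjusted p = 0.0418), a call that was lost when any single array other than C2 was left out, with adjusted p up to 0.129.

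Of 13 histone acetyltransferases and coactivators 0 rose and 1 fell, with a median of −0.02. That gene was Ncoa2, a nuclear receptor coactivator, at −0.34 (limma adjusted p = 0.04). The other 2 probes of Ncoa2, at −0.01 and 0.14, did not pass, and the call was lost without C1, C3, C4, T1, T2, T4 or T5, with adjusted p up to 0.111. Of 8 bromodomain genes tested, whose proteins read acetylated histones, 2 rose and 1 fell, with a median of 0.04, and Brd1 was not tested. Brd2 rose by 0.51 (standard error 0.0871, limma adjusted p = 0.00179) and Brd3 by 0.27 (adjusted p = 0.0126), and Atad2 fell by 0.31 (adjusted p = 0.0162). The groups did not overlap for any of these, as for 22.6% of all probes. Of the other 2 probes of Brd3, at 0.16 and 0.31, 1 was called higher. The other 2 probes of Atad2, at −0.09 and 0.03, did not pass. These lists were chosen with results of these arrays known, and their counts lie beside the 11.2% of genes called higher and 13.6% called lower over the whole array.

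**Figure D5:**
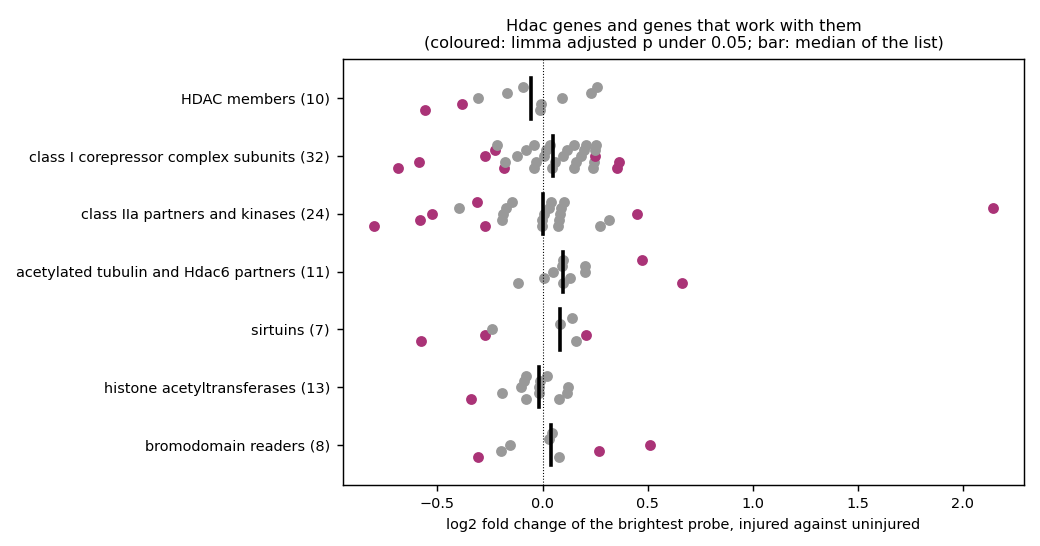
Log2 fold change (injured against uninjured, brightest probe) of each tested gene of the Hdac family and 6 related lists, with the number tested in brackets, coloured where limma's adjusted p was under 0.05 and with a bar at the list's median. Medians lie between −0.05 for the Hdac genes and 0.10 for the Hdac6 partners, and Camk1 at 2.15 stands far to the right.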

How the data were processed

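Total RNA of L3/L4 DRG was hybridised by the authors to 2-colour Agilent whole mouse genome arrays. The deposited scanner intensities give the mean brightness of a spot and its median local background in each channel, from Feature Extraction 10.5.1.1 per the file headers, which also hold Agilent's own log10 ratios, made with its background model and dye normalization. The authors' processed values, which were used as an alternative, are log2 ratios of Cy5 over Cy3 with background corrected and arrays normalized, and the submitters' notes name limma. Scanner values processed as below had slopes between 0.985 and 0.994 against them.

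Processing used limma 3.58.1 in R 4.3.3. Spots with non-uniform local background (20 on T2, up to 5 on any other array) were left out, background was corrected by normexp (offset 50), arrays were normalized by loess with control spots at weight 0, outlier spots were dropped and repeated spots of a probe averaged. Probes well above background in Cy5 on at least 4 of 9 arrays were kept. A gene is represented by its brightest probe. Groups were compared with limma's moderated test over all probes with Benjamini-Hochberg adjustment (threshold 0.05), and each probe alone by a two-sided exact permutation test. The procedure was tested on simulated data.

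The 10 genes, the related lists, the treatment of spots and the tests were chosen with earlier results of these data known. All Hdac probes are named, with up to 3 called genes per direction of each related list by size of change, Atf3 and Jun, and marker genes as lists; exceptions are stated. Alternatives were all spots in the background fit, no background correction, an offset of 0, median centring, Agilent's ratio, the authors' values, Cy5 alone, no filter or a filter on both channels, array weights, slide as a block (fixed or random), probes averaged by gene, 1 probe a gene, a stricter threshold and each array left out in turn. Probe coordinates are those of the files, on mm7, with no exon annotation of that build used here. The number of arrays limits the precision. Python 3.11.15 with matplotlib 3.10.9 drew the figures.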

Additional observations from a re-analysis of the deposited data

Results flagged for a closer look

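In 5 of 78 groups of arrays, the highest or lowest value was far from its neighbour compared with the spread of its group, which happens by chance in about 1 in 20 groups. Injured array T5 stood apart for the brighter Hdac7 probe, at −0.94 with the next array at −1.30. Among related genes, uninjured array C4 stood apart for Kdm1a at −0.62 and for Jun at −0.44, injured array T3 for Camk1 at 1.34, and uninjured array C2 for Cttn at −0.48.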

How the results depend on the processing

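No paired analysis was possible because no label ties a sample to an animal and the replicate numbers follow accession order. The fit without the arrays of raised muscle markers (T2 and T4) was chosen after seeing the data. As reported, 7339 probes were called, 2 of them Hdac probes, which stand for 2 Hdac genes. Median centring gave 3519 probes, 1 Hdac probe and 1 Hdac gene. Slide as a fixed block, which rests on C1, gave 1507 probes and 0 Hdac probes or genes in limma (4 probes at an unadjusted p under 0.05), and 55.5% of its calls were higher, against 44.6% as reported. Leaving out T2 and T4 gave 4037 probes, 0 Hdac probes (4 unadjusted) and 0 Hdac genes, and an adjusted p under 0.01 gave 3956, 0 and 0 by construction. An offset of 0 gave 1 Hdac probe and 1 Hdac gene, and Agilent's ratio 1 Hdac gene. Cy5 alone and slide as a random block (correlation −0.20, which raises the count) gave 4 Hdac probes each, and array weights 5. With each array left out the counts were 5358 to 7487 probes, 1 to 4 Hdac probes (4 without T5) and 1 to 3 Hdac genes (1 without C1, C2, C4, T2, T3 or T4). In the reference channel 0.0994% of probes were called, and between 0.0321% (without C3) and 0.337% (without C1) with single arrays left out, a move of over 1.5 times also without C2, C4, T1 or T4. Of 924 comparisons of 39 log2 fold changes with their alternatives, 793 kept direction and side of the threshold, 94 lost a call, 15 gained one and 22 changed sign, all of these 22 in probes that were not called.

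Hdac4 kept its direction under all 24 alternatives and its call under 20, and Hdac11 its direction under 24 and its call under 15. For Hdac11 an offset of 0 gave an adjusted p of 0.0587, Agilent's ratio 0.0902 and slide as a fixed block 0.699. Signs turned for Hdac1 with median centring (−0.0027), Hdac5 with slide as a fixed block (0.026) and the dimmer Hdac8 probe with that block (0.054). The brighter Hdac8 probe turned with all spots (0.052), no background correction (0.0057), slide as a fixed block (0.14), without T2 and T4 (0.042), and with single arrays left out, where it lay between −0.053 and 0.050. Hdac9 probe 1 turned with no background correction (0.0025), an offset of 0 (0.029), Agilent's ratio (0.11), the authors' values (0.028), slide as a random block (0.036), the average of probes (0.10), without T2 and T4 (0.018), and with single arrays left out (−0.081 to 0.044). The cause was not tested for these changes. The dimmer Hdac2 probe passed with no background correction (−0.19), array weights (−0.19) and Agilent's ratio (−1.01), where its signal lay near background.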
